A study of Homo sapiens with 12 samples.

Results

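Cytosolic ribosomal protein genes encode the proteins that, with ribosomal RNA, form the small and large subunits of the ribosome. They were chosen here by symbol, as genes named RPS or RPL with a number, with the stalk proteins RPLP and without pseudogenes, S6 kinases and Y-linked copies, and each needed a probe set that the platform annotation gives to that gene alone. The rule found 59 genes of 19775 with such a probe set, and 58 of 13834 genes passed the filter on low signals. The gene that did not pass, RPL3L, a muscle form of RPL3, had signals of 1.2 to 8.0 on the 12 arrays. Another 65 probe sets name a ribosomal protein gene together with a further gene, mostly a small nucleolar RNA in an intron, and are not among the members.

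The cells were SW13, a human adrenal cortical carcinoma line, carrying the empty vector pREP7 (SW13+vector) or pREP7 with BRG1, the ATPase of the SWI/SNF chromatin remodeling complex (SW13+BRG1). RNA was taken 6 h after a UV dose of 10 J/m2 or a mock treatment of each line, which gives 4 groups of 3 arrays, numbered by experiment. The methods name 1 stable line per construct, with 3 independent biological replicates, so a group is 1 line on 3 arrays, 1 per replicate. The p values measure the spread within lines, and BRG1 and other differences between the lines cannot be told apart. In these bulk samples, fewer cells of a kind and less RNA per cell cannot be told apart either.

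The labels were checked on SMARCA4, the gene of BRG1, and it did not follow them. Its brightest probe set had signals of 314, 383 and 920 in mock-treated SW13+vector cells and 143, 161 and 336 in mock-treated SW13+BRG1 cells. Of its 7 probe sets tested, 2 were lower and 0 higher in SW13+BRG1 without UV, and after UV 1 was lower and 1 higher (limma, adjusted over probe sets). After UV the last had signals of 35.9, 16.9 and 50.4 in SW13+vector, against 107.5, 136.0 and 200.7 in SW13+BRG1. Where these probe sets lie relative to the introduced sequence was not examined, and SW13+BRG1 below means the arrays labelled with BRG1. Of 8 adrenal cortex markers measured, FDX1 was above the array median (21.1 to 25.3) on all 12 arrays, at 715 to 1626, and MC2R on 7 arrays, at up to 60.7. The steroidogenic genes NR5A1, STAR, HSD3B2, CYP11A1, CYP11B1 and CYP17A1 were at or above it on 0 to 3 arrays. The median log2 signal of the members was highest on the array of experiment 3 in each of the 4 groups. The 3′ to 5′ signal ratio of ACTB was 2.57 in mock-treated SW13+vector cells of experiment 3 and 1.21 to 1.62 on the other arrays, and that of GAPDH was 1.64 there and at most 1.25 elsewhere. Counts without the arrays of experiment 3, an alternative chosen after seeing the data, and with the experiment number as a block are given with the results that they move.

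Ribosomal proteins are made in near equal numbers, and their genes are among the most strongly transcribed in dividing cells. Most of their mRNAs start with a C followed by a run of pyrimidines, the 5′ terminal oligopyrimidine (TOP) motif, through which mTOR signaling controls their translation. A few genes have a second, related copy whose protein can take the place of the common one or has taken on another task. RPS27L, for example, is a known target of p53, the transcription factor of the DNA damage response.

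The starts of some members are shown to set genes beside second copies, of which RPS27 and RPS27L differ in the pyrimidine run while RPL22 and RPL22L1 both have one. Each line gives 10 bases before and 20 bases from a RefSeq start on GRCh38.p14, 5′ to 3′ on the strand of the gene, with the pyrimidine run at the start in capitals. RPS6 is at chr9:19380217-19380246 (minus strand), RPL11 at chr1:23691796-23691825 (plus), RPS27 at chr1:153990752-153990781 (plus), RPS27L at chr15:63157458-63157487 (minus), RPL22 at chr1:6199576-6199605 (minus), RPL22L1 at chr3:170870176-170870205 (minus), RPL39 at chrX:119791611-119791640 (minus), RPL14 at chr3:40457329-40457358 (plus), RPL7L1 at chr6:42879606-42879635 (plus) and RPL10L at chr14:46651762-46651791 (minus).
RPS6: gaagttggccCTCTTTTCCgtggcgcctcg
RPL11: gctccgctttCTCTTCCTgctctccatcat
RPS27: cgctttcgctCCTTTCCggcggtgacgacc
RPS27L: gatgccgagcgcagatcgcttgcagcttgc
RPL22: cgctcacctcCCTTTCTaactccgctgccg
RPL22L1: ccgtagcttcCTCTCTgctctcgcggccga
RPL39: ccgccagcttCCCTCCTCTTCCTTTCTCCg
RPL14: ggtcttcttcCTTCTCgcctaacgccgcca
RPL7L1: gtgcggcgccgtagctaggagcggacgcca
RPL10L: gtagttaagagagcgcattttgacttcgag

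A start was counted as TOP where its first base is C and at least 5 pyrimidines follow each other from it. A gene with several starts was counted where any of them was TOP. RPL11 also has a start in the window chr1:23691769-23691798, not shown, whose first base is A. Of the 58 genes, 51 matched an entry in the RefSeq table, and 35 of these (68.6%) had a TOP start, against 6.85% of the genes tested and 5.14% of all genes in the table. Among the second copies with an entry, RPL22L1 had a TOP start and RPS27L, RPL7L1, RPL10L and RPL26L1 had none. The motif CCGGAA, on either strand, stood in the 300 bases around a start of 58.8% of the members and 32.4% of the genes tested. TATAAA, on either strand, stood there in 9.8% and 9.17%.

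At 6 h after UV, the mean deposited log2 signal was higher for 56 of 58 ribosomal protein transcripts in SW13+vector and for 57 in SW13+BRG1. The quartiles of the log2 fold change were 0.28 and 0.37 with the vector, and 0.41 and 0.50 in SW13+BRG1, and the extremes -0.12 and 1.01, and -0.17 and 0.81. In SW13+BRG1 51 of 58 were called higher and 0 lower, with called folds of 1.31 to 1.75. Of all 13834 genes tested 7.99% were called higher there and 11.7% lower, 19.7% in all. In SW13+vector 25 of 58 were called higher and 0 lower, beside 5.54% and 8.44% of all genes, 14% in all. With the experiment number as a block, 54 and 53 members were called higher with the vector and BRG1, beside 13.5% and 15.3% of all genes, so the counts of the lines were then alike. No member passed with a fold over 2 in either line, where 4.8% of all genes did with the vector and 7.14% with BRG1. The median log2 fold change of the members was 0.33 with the vector and 0.46 with BRG1, and that of all genes tested was 0.03 in each. The UV signals lay above every mock signal for 36 members with the vector and 53 with BRG1, where 15% and 17.2% of all genes did. They lay below every mock signal for 0 members in either line, where 17.2% and 19.9% of all genes did. These counts rest on how the arrays were scaled. After quantile normalization the medians were 0.03 in both lines and 1 and 3 members were called higher, beside 3.37% and 5.33% of all genes. This scaling holds the brightest signals nearly level by construction, as given below. Scaled to hybridization controls the medians were 0.07 and 0.06 with 1 called higher in each line, beside 0.484% and 0.448% of all genes. With the array medians set equal (a common median) the medians of the members were 0.31 and 0.51. Then 2 and 24 members were called higher, beside 2.35% and 6.02% of all genes.

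**Figure D1:**
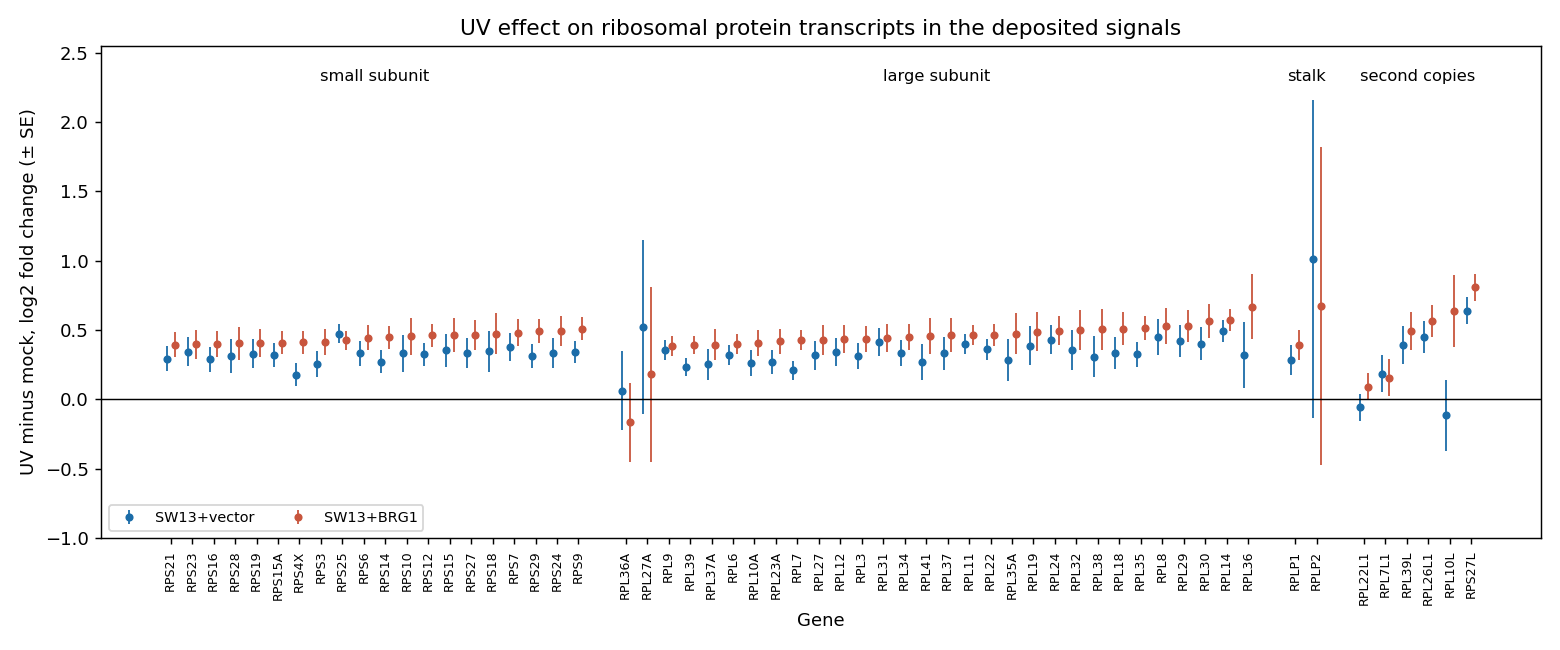
Log2 fold change of UV over mock (vertical axis) with its standard error for each of the 58 genes tested, by role, in SW13+vector (blue) and SW13+BRG1 (red), from the deposited signals of 3 arrays per group. All 20 small subunit genes lie between 0.39 and 0.51 in SW13+BRG1, and RPL36A, RPL27A and RPLP2, on dim probe sets, have wide errors.

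All 20 small subunit genes were called higher in SW13+BRG1, with log2 fold changes of 0.39 to 0.51, and 8 of 20 in SW13+vector, where they ranged from 0.18 to 0.47. RPS25, which helps viral internal ribosome entry sites recruit the small subunit, had signals of 7620, 7133 and 7461 in mock-treated SW13+vector cells and 10905, 9774 and 10172 once irradiated. In SW13+BRG1 they were 8404, 8311 and 8394 before and 11242, 10998 and 11503 after UV. The groups did not overlap in either line, and the log2 fold changes were 0.47 (SE 0.07) with adjusted p = 0.000912 and 0.43 (SE 0.07) with adjusted p = 0.000895 (limma). RPS6, the substrate of the S6 kinases, went from 11110, 12098 and 12705 to 15075, 13933 and 16186 with the vector and from 12222, 12121 and 13912 to 16767, 16473 and 18776 with BRG1. Both changes of RPS6 were called, at 0.33 and 0.44 on the log2 scale. RPS3, which lines the mRNA entry channel, was called with BRG1 (0.41, adjusted p = 0.00652) and not with the vector (0.25, adjusted p = 0.0875), where it was called with the block (adjusted p = 0.00244).

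Of the 30 large subunit genes 27 were called higher in SW13+BRG1 and 15 in SW13+vector. RPL14 had the largest called change among them in each line. Its signals were 4342, 4455 and 4619 in mock-treated SW13+vector cells and 6141, 6068 and 6687 once irradiated, and 4917, 5219 and 5526 against 7452, 7522 and 8265 in SW13+BRG1. The log2 fold changes were 0.49 (SE 0.08, adjusted p = 0.00165) and 0.57 (SE 0.08, adjusted p = 0.00035, limma). RPL8, RPL24, RPL29 and RPL30 were called in both lines at 0.40 to 0.56. RPL11, a protein of the 5S RNA particle that binds and inhibits MDM2, rose by 0.40 and 0.46 on the log2 scale, its mock signals of 9290.5 to 9428 with the vector all lying below its UV signals of 11567 to 12846. The 3 large subunit genes not called in SW13+BRG1 were RPL36 (0.67, adjusted p = 0.0659), RPL27A (0.18) and RPL36A (-0.17), and RPL27A and RPL36A had dim probe sets. A further bright probe set of RPL14 changed by 0.44 with the vector and by 0.40 with BRG1, where it was not called (adjusted p = 0.0538 over probe sets).

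The stalk of the large subunit, which recruits translation factors, was represented by RPLP1 and RPLP2. RPLP1 was called with BRG1 alone (0.39, adjusted p = 0.0203; 0.28, adjusted p = 0.102 with the vector, and 0.000519 there with the block). RPLP2 had a dim probe set with signals of 77.9 to 138.3 in experiments 1 and 2 and of 9.1, 34.7, 6.6 and 22.7 in experiment 3, and it was not called in any comparison.

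No member passed the test of the difference between the UV effects of the lines, against 0.094% of all genes (0.0289% higher and 0.0651% lower, and 0.0867% with a fold over 2), and 1 had an unadjusted p under 0.05. The UV effect was larger in SW13+BRG1 for 53 of 58 members, with a median difference of 0.12 on the log2 scale and -0.01 with quantile normalization. All 4 groups enter this difference, and the members share their arrays, so the 53 are not separate observations. Within experiments 1, 2 and 3, the member median rose by 0.43, 0.28 and 0.23 with the vector and by 0.44, 0.48 and 0.45 with BRG1.

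Other bright transcripts moved likewise. The 25 genes outside the symbol rule, FAU among them, with a mean signal at or above the lower quartile of the members had median log2 fold changes of 0.31 with the vector and 0.41 with BRG1, and 8 (32%) and 19 (76%) of them were called higher. Over the other genes tested, the top quartile of mean signal had medians of 0.18 and 0.21, and the middle quartiles had medians of -0.10 to -0.11. The lowest quartile had medians of 0.10 and 0.09, so the effect did not rise steadily with signal. After UV the 75th percentile of the arrays was lower, at 93.3 to 99.2 against 106.8 to 118.9, and the highest signal was higher, at 19144 to 24652 against 14736 to 18905. Their part in the rise of the members was not tested.

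**Figure D2:**
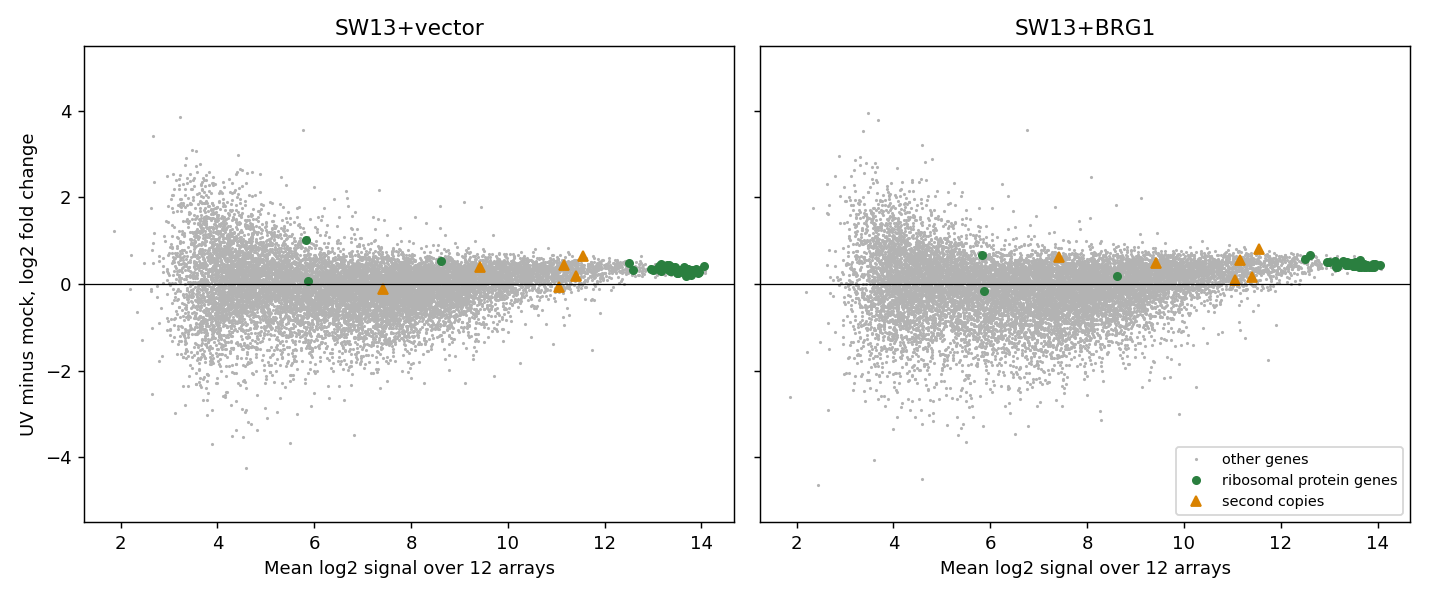
Log2 fold change of UV over mock against the mean log2 signal over 12 arrays, for all 13834 genes tested (grey), the ribosomal protein genes (green) and the second copies (orange), in SW13+vector (left) and SW13+BRG1 (right). Most members sit at the bright end above 0, where the other genes also lie mostly above 0.

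The scaling moved the members with all genes. The hybridization controls are transcripts added to each sample, measured here on 18 probe sets. Scaling to them put the median of all genes tested at -0.23 with the vector and -0.36 with BRG1. The members stood above it by 0.30 and 0.42. This scaling shifts all genes of an array alike, so that distance is the deposited one by construction. Quantile normalization, which gives every array the same distribution of signals, left the members 0.03 and 0.06 below the median of all genes, which was 0.06 and 0.09. RPS27L was the only member called higher in both lines under these scalings and a common median alike. With quantile normalization RPL39L and RPL10L were also called with BRG1. Per array, the deposited median log2 signal of the members was 13.22, 13.22 and 13.48 in mock-treated SW13+vector cells and 13.65, 13.50 and 13.72 once irradiated, and 13.22, 13.21 and 13.39 against 13.66, 13.69 and 13.84 in SW13+BRG1. With quantile normalization all 12 arrays lay between 13.42 and 13.52, and mock and UV overlapped. Most members are among the brightest genes, with only 25 other genes at or above their lower quartile. Giving every array the same distribution holds a joint rise of the brightest signals near 0 by construction. These flat medians therefore cannot show whether the members rose.

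**Figure D3:**
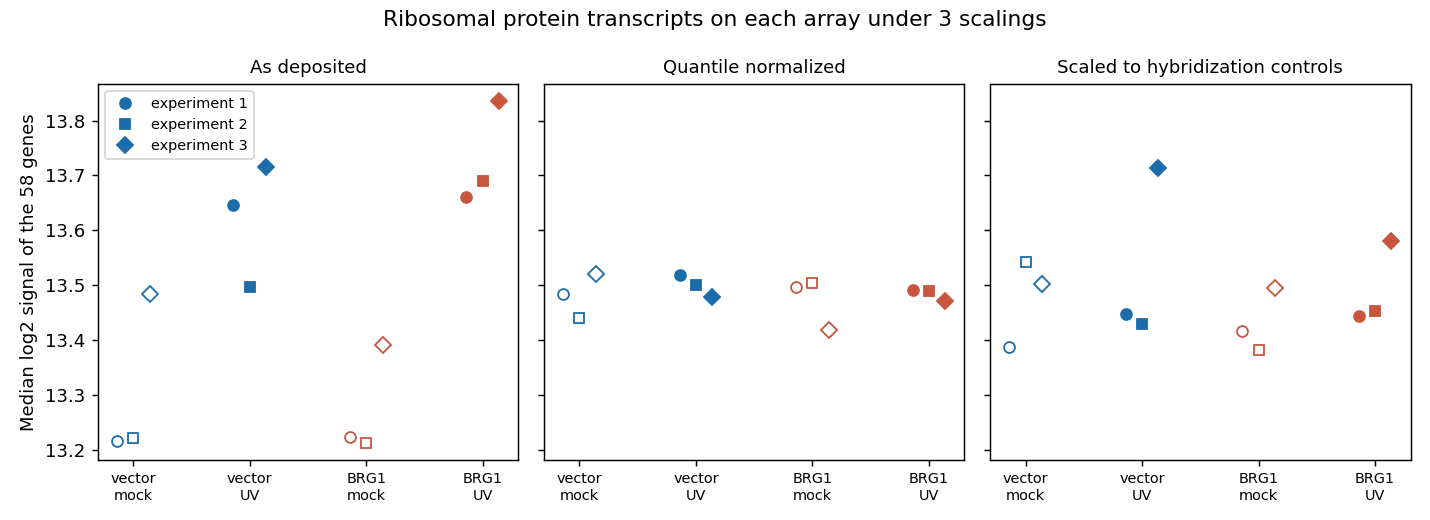
Median log2 signal of the 58 genes on each array (vertical axis, which does not start at 0), by group and experiment, for the deposited signals, after quantile normalization and after scaling to hybridization controls. The UV arrays (filled) lie above the mock arrays (open) of their line as deposited, and overlap them under the other scalings.

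The number of calls with the vector also moved with single arrays. It was 7 without mock-treated array 1 or 2 of SW13+vector, 8 without UV-treated array 1 or 3 and 40 without mock-treated array 3, and 55 without the 4 arrays of experiment 3. In SW13+BRG1 it was 34 to 52 over the arrays left out in turn, and 55 without experiment 3. Without experiment 3, 14.6% of all genes were called higher with the vector and 16.6% with BRG1. Shares of all genes with single arrays left out are not given here, so whether those counts moved with all genes is not shown.

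Other probe sets gave like values. Of the members' 23 further probe sets with a mean signal of at least 1000, 12 were called higher and 0 lower by UV in SW13+vector. In SW13+BRG1 these counts were 21 and 0. Of the 32 dimmer ones, 4 were called higher and 1 lower, and 3 and 1. The 46 tested probe sets that name a ribosomal protein gene and small RNA genes cover 16 genes, 12 of them not among the members, and had medians of 0.35 and 0.45, with 23 and 36 called higher and 1 lower in each line. Shares over all probe sets are not given here. Over all genes, with 1 probe set each, 5.54% were called higher with the vector and 7.99% with BRG1. Bright genes outside the family also rose, as given above. Of the 58 members, 44 were measured on probe sets whose name ends in _s_at or _x_at, which can match transcripts of related genes or pseudogenes.

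RPL13, of the large subunit, is not among the members because each of its 8 probe sets also names SNORD68. After UV 5 of these were called higher with the vector, at 0.34 to 0.43 on the log2 scale, and 6 in SW13+BRG1 (adjusted over probe sets). The sixth was a dim one, with signals of 48.7, 36.8 and 61.3 in mock-treated SW13+vector cells and 73.9, 77.6 and 108.4 after UV, against 21.6, 28.3 and 27.1 and 82.1, 62.2 and 75.1 in SW13+BRG1. Mock and UV did not overlap on it in either line, and its log2 fold changes were 0.83 (adjusted p = 0.0905) and 1.51 (adjusted p = 0.00355). No probe set of RPL13 was called for the difference of the UV effects.

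Members are short genes. Their median span was 5136 bp (772 to 27723 bp), against 28088.5 bp over the 13818 genes tested with a span, and 48 of 58 fell in the first quartile of span over all genes. That quartile had median UV effects of 0.26 and 0.28 on the log2 scale, and the genes of the longest spans, the fourth quartile, of -0.26 and -0.21. Spearman's rho between span and UV effect was -0.33 and -0.30 across all genes, which share the same arrays and are not replicates. Among the members it was 0.12 and -0.02.

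The second copies were less alike than the rest of the family. They were also dimmer, with mean log2 signals of 7.42 to 11.55, where 49 of the 52 other members had signals of 4081 to 22456 on every array. The part of this difference in signal was not tested. RPS27L had the largest called UV effect of the members in both lines. Its signals were 1889, 1823 and 2111 in mock-treated SW13+vector cells and 2929, 2844 and 3298 once irradiated. In SW13+BRG1 they were 2604, 2834 and 2996 before and 4695, 4861 and 5189 after UV. Mock and UV arrays did not overlap in either line, nor did the lines within a treatment. The UV effect was 0.64 (SE 0.10, adjusted p = 0.00106) with the vector and 0.81 (SE 0.10, adjusted p = 0.000109) with BRG1 on the log2 scale (limma). It was also called under quantile normalization (0.43 and 0.42), a common median (0.62 and 0.86) and scaling to hybridization controls (0.38 and 0.42). The difference of 0.17 between these effects was not called. The other probe sets of RPS27L had UV effects of 0.95 and 1.04 in SW13+vector, against 1.07 and 1.08 in SW13+BRG1, of which the dimmer was called in both lines. RPS27, the gene it resembles, went from 10013, 10453 and 12487 to 13544, 12989 and 14950 with the vector and changed by 0.34 and 0.47, called with BRG1 (adjusted p = 0.00832) and not with the vector (adjusted p = 0.0551; 0.000252 with the block).

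RPL22L1, the second copy of RPL22, showed no call after UV. Its signals were 1719, 1546 and 1968 in mock-treated SW13+vector cells and 1666, 1630 and 1708 once irradiated, and 2426, 2650 and 2592 against 2739, 2732 and 2683 in SW13+BRG1. The UV effects were -0.06 and 0.09 (SE 0.10). Mock and UV overlapped with the vector and did not with BRG1, and scaled to hybridization controls the effect with BRG1 turned to -0.30 (adjusted p = 0.0495). RPL22 itself rose by 0.36 and 0.46 on the log2 scale as deposited, from 8602, 9262 and 9861 to 11832, 11537 and 12170 with the vector. Set against the median of the 52 members that are not second copies on the same array, the UV effect was 0.32 and 0.36 for RPS27L and -0.37 and -0.36 for RPL22L1. This cancels a factor common to all genes of an array, but not a scaling that depends on signal. The 52 members rose as deposited, with medians of 0.33 and 0.45, and that rise enters these values. With quantile normalization RPL22L1 changed by -0.23 and -0.24, neither called.

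**Figure D4:**
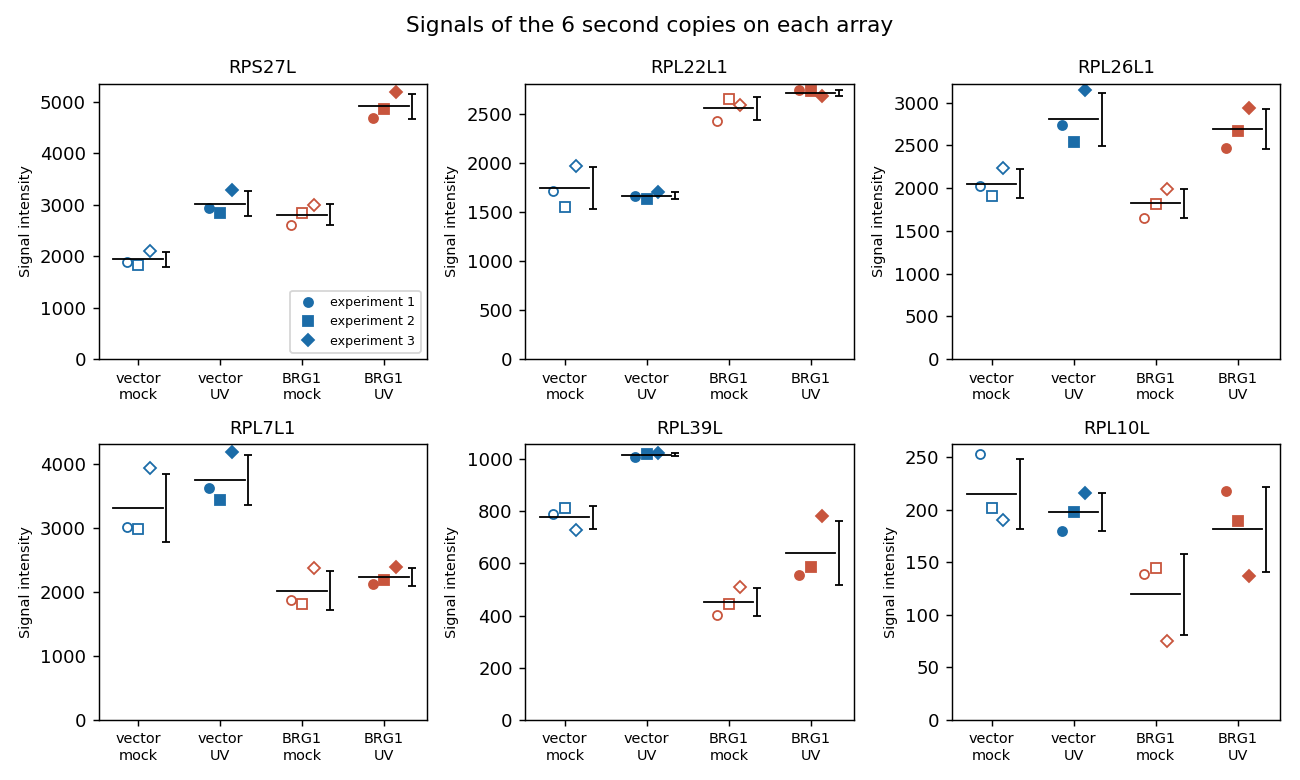
Signal intensity of the 6 second copies on each array, by group and experiment (marker), with the group mean (line) and its SD (bar, n = 3). RPS27L is higher after UV and higher in SW13+BRG1, RPL22L1 is higher in SW13+BRG1, and RPL7L1 and RPL39L are lower there.

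RPL26L1, the copy of RPL26, was called higher after UV in both lines (0.45, adjusted p = 0.019; 0.57, adjusted p = 0.00352) but in neither with quantile normalization or hybridization controls. Its call with the vector was also lost with a common median (adjusted p = 0.139), without a trend in the prior (adjusted p = 0.0999), and without mock-treated array 1 or 2 or UV-treated array 1 or 3 of SW13+vector (adjusted p = 0.0512 to 0.0803). RPL39L was called in SW13+BRG1 (0.49, adjusted p = 0.0251) and not with the vector (0.39, adjusted p = 0.0821), where it was called with the block (adjusted p = 0.0198) and without experiment 3 (adjusted p = 0.00672). The call in SW13+BRG1 was lost with a common median (adjusted p = 0.0657), hybridization controls (0.10, adjusted p = 0.741), only the arrays compared (adjusted p = 0.0704), no trend (adjusted p = 0.0784), and without mock-treated array 1 or 2 or UV-treated array 3 of SW13+BRG1 (adjusted p = 0.0765 to 0.112). RPL7L1, which resembles RPL7, was called in neither line (0.18 and 0.15), but with the block in SW13+vector (adjusted p = 0.0462). Without experiment 3 it was called in both lines (0.23, adjusted p = 0.00801 with the vector, and 0.23, adjusted p = 0.00765 with BRG1, limma). RPL10L, an intronless copy of RPL10 known from the testis, had signals between 75.1 and 253.4 and was not called after UV, but was in SW13+BRG1 with the block (0.64, adjusted p = 0.0306) and without experiment 3 (0.52, adjusted p = 0.0193).

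Between the lines, 5 of the 6 second copies were called without UV and 4 after it, and RPL26L1 in neither (-0.17 and -0.06). Without UV, 2 members were called higher and 3 lower in SW13+BRG1, where 15.3% and 13.2% of all genes were (28.5% in all), and all 5 were second copies. None of them had an effect past a fold of 2, where 14.6% of all genes were called with such a fold. None of the 52 other members was called, 2 of them had an unadjusted p under 0.05, and their log2 differences ran from -0.17 to 0.22. Some were called under alternatives: RPL14, RPL3 and RPS9 higher with quantile normalization, RPL14, RPL36, RPL8, RPS25 and RPS9 higher without experiment 3 (7 members higher in all, beside 21.6% of all genes). With the block, 8 members were called higher and 6 lower, beside 20.8% and 19.5% of all genes, RPL26L1 among those lower (adjusted p = 0.0451). The direction follows the labels, which SMARCA4 did not. RPL22L1 and RPS27L were higher, by 0.56 (SE 0.10, adjusted p = 0.000688) and 0.53 (SE 0.10, adjusted p = 0.000891). RPL39L, the copy of RPL39 found in testis and many tumors, had 788, 812 and 729 in mock-treated SW13+vector and 402, 443 and 510 in mock-treated SW13+BRG1 cells, a difference of -0.79 (SE 0.14, adjusted p = 0.000842). RPL7L1 had 3018, 2986 and 3928 against 1877, 1809 and 2366, a difference of -0.71 (SE 0.13, adjusted p = 0.00121). For these 4 genes the lines did not overlap. Over all members, mock signals in SW13+BRG1 lay above those of SW13+vector for 6 and below for 3, beside 21.6% and 19.7% of all genes. RPL10L was lower by -0.90 (SE 0.26, adjusted p = 0.0181), and this call was lost without SW13+vector array 1 (adjusted p = 0.0746) or SW13+BRG1 array 3 (adjusted p = 0.0628), and with only the arrays compared in the fit (adjusted p = 0.0518). RPL39 itself differed by 0.03 and RPL22 by -0.07, neither called. Some cell type markers also differed between the lines without UV. Of the mesenchyme list, VIM had 231 to 363 in SW13+vector and 6737 to 10362 in SW13+BRG1, and CDH2 had 2.2 to 23.2 and 1317 to 1444, while FN1 had at most 44.1. KRT18 of the epithelium list had 182 to 197 and 3115 to 4957, and KRT8 46.8 to 57.5 and 102 to 140, while EPCAM and CDH1 had at most 23.3. Lower in SW13+BRG1 were PTPRC of the blood list, at 78.2 to 160 and 5.7 to 8.4, and FDX1, at 1189 to 1626 and 761 to 844. Their part in the differences of the members was not tested.

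After UV 7 members were called higher and 2 lower in SW13+BRG1, beside 16.3% and 15.5% of all genes (31.8% in all, and 16.7% with a fold over 2, where 0 members were). Signals did not overlap for 13 members higher and 2 lower, beside 23% and 22.4% of all genes. Without experiment 3, 15 were called higher, beside 22.3% of all genes, and with the block 25 were, beside 22.2%. RPL22L1 (0.70), RPS27L (0.70), RPL7L1 (-0.74) and RPL39L (-0.69) were called again, and all 4 were called in both treatments under quantile normalization, a common median and scaling to hybridization controls as well. The other 5 calls were RPS9 (0.34, adjusted p = 0.0056), RPL3 and RPL14 (0.30 each), RPS4X (0.23) and RPL39 (0.19). None of these 5 was called with a common median or scaled to hybridization controls, and RPS9, RPL3 and RPL14 were called in both treatments with quantile normalization. The member median was 0.10 after UV and -0.00 without, and that of all genes -0.02 and 0.00. The difference was above 0 for 51 of 58 members after UV and 28 without, and the members share their arrays. With quantile normalization the member median was 0.00 in both.

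**Figure D5:**
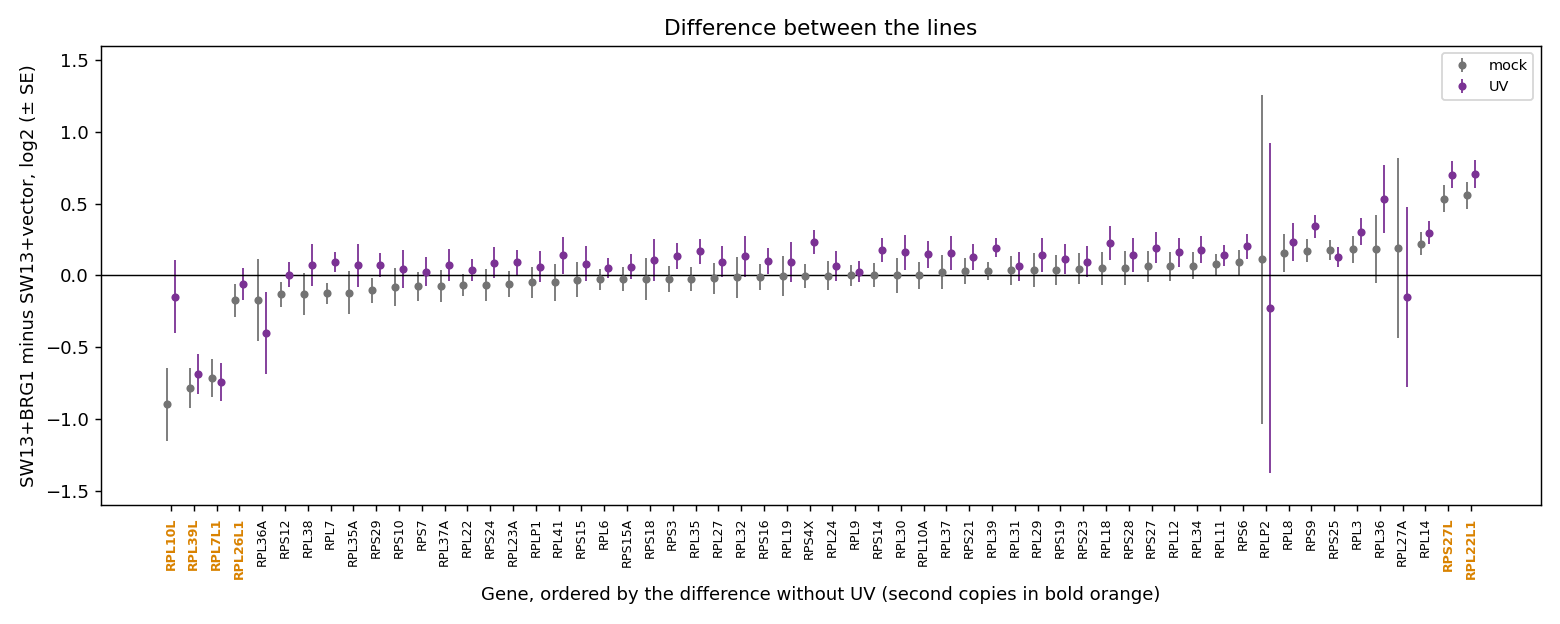
Difference between the lines, SW13+BRG1 minus SW13+vector, as log2 of the signals with its standard error, for each of the 58 genes in mock-treated (grey) and UV-treated (purple) cells, ordered by the mock difference. The second copies, named in bold orange, lie at both ends, and RPLP2 and RPL27A have wide errors.

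Genes that make or use ribosomes were set beside the members. Of 32 ribosome assembly factors tested, 15 were called lower and 0 higher in SW13+BRG1 without UV, and 14 and 0 after UV, with medians of -0.64 and -0.50 on the log2 scale. Of all genes 13.2% were called lower and 15.3% higher without UV, and 15.5% and 16.3% after it. DDX21, a nucleolar helicase, differed by -1.32, LTV1, a small subunit assembly factor, by -1.42, and NCL (nucleolin) by -0.65, all without UV. After UV 2 of the assembly factors were called higher and 3 lower in SW13+vector, against 4 and 3 in SW13+BRG1, where 14% and 19.7% of all genes were called in either direction. Fibrillarin (FBL), which methylates ribosomal RNA, was called higher in both, at 0.40 and 0.62. Of 12 genes of RNA polymerase I and its factors, 1 was higher and 3 lower in SW13+BRG1 without UV, beside 15.3% and 13.2% of all genes.

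Of 75 genes of the mitochondrial ribosome tested, 23 were called higher and 0 lower in SW13+vector, against 33 and 2 in SW13+BRG1, with medians of 0.33 and 0.34, and 5.54% and 7.99% of all genes were called higher. Of 41 initiation factor genes, 15 were called higher and 0 lower, and 14 and 1, with medians of 0.33 and 0.32. EIF3G, EIF3H and EIF3I, subunits of the factor that binds the small subunit, were called in both lines at 0.38 to 0.69. Of 7 elongation and release factors, 1 and 2 were called higher, among them EEF1A1 (0.36 in each line), which delivers aminoacyl-tRNA. A broad list of 14 genes was drawn up for TOP mRNA control, and it also holds MYC and LARP7. Of these, 1 was called higher and 3 lower in each line, where 8.44% and 11.7% of all genes were called lower. LARP1, which binds the TOP motif, was lower in SW13+BRG1 without UV (-0.45, adjusted p = 0.0126) and was not called after UV in either line. FAU and RPL36AL, ribosomal protein genes whose symbols fall outside the rule, changed by 0.33 and 0.50 with the vector, where RPL36AL alone was called, and were both called with BRG1 at 0.46 and 0.56. Initiation, mitochondrial ribosome and elongation genes had fewer calls higher than lower between the lines without UV, at 3 against 12, 1 against 17 and 1 against 3. After UV these were 3 against 10, 3 against 19 and, for elongation, 3 against 2. Of all genes 15.3% were called higher and 13.2% lower without UV, and 16.3% and 15.5% after UV.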

How the data were processed

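Total RNA of 12 samples was hybridized by the authors to Affymetrix U133 Plus 2.0 arrays, summarized with MAS at default settings and scaled on each array to a mean intensity of 125. The deposited signal intensities are on a linear scale, 1 for each of 54675 probe sets. The sources used here do not give the MAS version. The mean without the highest and lowest 2% was 125 on each array.

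Signals were taken to log2 without further normalization. Probe sets other than 62 controls were tested where at least 3 of the 12 arrays were at or above the array median, which left 32622. They were fitted with limma 3.58.1 in R 4.3.3, each group having 1 mean, and the prior of the variance depending on signal. For genes with several probe sets of their own, the brightest was used, giving 13834 genes over which the Benjamini-Hochberg adjustment was made. A transcript was called higher or lower at an adjusted p under 0.05 and any fold. The fit was tested on simulated data with independent errors on each array. That simulation holds no effect shared by the arrays of an experiment, so it does not cover this feature of the data.

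The members, gene lists and tests were chosen with earlier results of these data known. Named genes are the second copies with the genes they resemble, up to 6 called genes with the largest change per direction and comparison, and a short list of well-studied members. The alternatives tried were a common median, quantile normalization, 2 other filters, scaling to 18 probe sets of hybridization controls and log2 of the signal plus 16. Further ones were the experiment number as a block, only the arrays compared, no trend in the prior, the mean over probe sets and adjustment over all probe sets. A required fold over 2, the methods' t-test in 3 forms and each array left out were also tried. Leaving out the arrays of experiment 3 was added after the data were seen. Promoter sequences are from RefSeq on GRCh38.p14. The number of arrays limits the precision of every value. The sample titles give each array an experiment number shared by the 4 groups, which is taken as the pairing of the block. Residuals of arrays with the same number correlated at 0.075 to 0.141, 0.015 to 0.102 and 0.179 to 0.293 in experiments 1, 2 and 3.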

Additional observations from a re-analysis of the deposited data

How the results depend on the processing

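Of the values for comparisons, 333 under an alternative stayed and 56 moved, and the UV counts turned on the scaling. A median stayed if it shifted by less than 0.117, the pooled SD within groups of the member median (log2). The line median after UV, 0.10 as deposited and 0.0023 with quantile normalization, thus counts as having stayed. A count stayed if it was equal or within 1.5 times, and counts of 0 in both settings are included. Of the values for named members, 1242 kept direction and side of the threshold, 295 lost the call, 11 gained one and 30 changed sign, mostly values not called. Under quantile normalization, a common median and scaling to hybridization controls, 1, 2 and 1 members were called higher after UV with the vector in place of 25, and 3, 24 and 1 (with 1 lower under the last) with BRG1 in place of 51. Over all genes 3.37%, 2.35% and 0.484% were called higher with the vector, and 5.33%, 6.02% and 0.448% in SW13+BRG1. With a common median the median UV effect was 0.31 in SW13+vector and 0.51 in SW13+BRG1. Under quantile normalization and hybridization controls it was 0.025 and 0.071 in SW13+vector, against 0.031 and 0.064 in SW13+BRG1. The median difference of UV effects became -0.0088 and -0.016. After UV the line median became -0.045 with hybridization controls, where 2 were called higher, as with a common median, in place of 7. Without UV quantile normalization called 5 higher in place of 2. RPL22L1 turned to -0.30 in SW13+BRG1 after UV with hybridization controls, and RPL39 to -0.029 with the vector. Quantile normalization turned RPL39 to -0.073 in SW13+vector, and in SW13+BRG1 RPL39 to -0.015, RPLP1 to -0.034 and RPS3 to -0.027. Of these, RPL22L1 was called (adjusted p = 0.0495). Among effects not called, quantile normalization turned RPL22L1 to -0.24 and RPL7L1 to -0.14 in SW13+BRG1, RPL7L1 to -0.071 and RPL10L to 0.056 in SW13+vector, and the differences of UV effects of RPL22L1 to -0.011 and RPS27L to -0.012. Hybridization controls turned RPL7L1 to -0.24 and -0.075 (SW13+BRG1, SW13+vector) and the differences of RPL26L1 to -0.015 and RPL39L to -0.030, and a common median that of RPL7L1 to 0.038. Without experiment 3 RPL10L turned to 0.11 between the lines after UV and RPL22L1 to 0.016 by UV in SW13+vector. Leaving out arrays in turn, signs varied between the lines after UV for RPL10L (-0.29 to 0.041) and RPL26L1 (-0.13 to 0.027), by UV in SW13+vector for RPL10L (-0.20 to 0.0072) and RPL22L1 (-0.14 to 0.033), and for the differences of RPL39L (-0.051 to 0.20) and RPL7L1 (-0.16 to 0.090).

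With the experiment number as a replicate block, 54 members were called higher after UV with the vector and 53 with BRG1, 8 higher and 6 lower between the lines without UV, and 25 higher and 2 lower after UV. Over all genes 13.5% and 15.3% were called higher by UV, 20.8% higher and 19.5% lower between the lines without UV, and 22.2% and 21.8% after UV. No member was called for the difference of UV effects with the block. Without experiment 3 the line comparison called 7 higher without UV and 15 after, beside 21.6% and 22.3% of all genes. UV with the vector then called 55, beside 14.6% of all genes. A variance prior without trend called 3, 11 and 2 (UV with the vector, UV with BRG1, lines after UV), and a fit on only the arrays compared called 12 with the vector. With a fold over 2 required, 0 members were called in any comparison, likewise by the methods' t-test with a fold over 2. The methods' t-test without adjustment called 4 higher between the lines without UV. After adjustment it called 0 after UV with the vector and 7 with BRG1, 1 higher and 0 lower between the lines without UV, and 4 and 1 after UV. Leaving out arrays in turn, calls higher ran from 7 to 40 (UV with the vector), 34 to 52 (UV with BRG1), 2 to 3 (lines without UV) and 4 to 8 (lines after UV), and calls lower from 2 to 3 between the lines without UV. Shares of all genes are not given here for the prior without trend, only the arrays compared, the t-tests and the arrays left out. The cause of these changes was not tested.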
